A study of Mus musculus with 2 samples.

Results

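Collagen chains and the enzymes that modify, process and cross-link them were described in whole ovaries of mice without the progesterone receptor (PR knockout, gene Pgr) and of wild-type mice. The genes were taken by symbol: every gene whose symbol is that of a numbered collagen alpha chain, and a list of 16 genes of hydroxylation, glycosylation, folding, processing and cross-linking. A total of 57 of the 18193 genes on the array met this rule, 42 of them chains and 15 modifying enzymes or helper proteins. They were read by 107 probe sets, and each gene was represented by the one with the highest mean log2 signal. Loxl2 was not analysed here, because its probe sets also carry a second gene symbol.

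Both groups were immature C57BL/6 mice aged 24 to 28 days. They were injected intraperitoneally with 5 IU PMSG, a gonadotropin from pregnant mares that makes follicles grow, and 48 h later with 5 IU hCG, a human gonadotropin that sets off ovulation. The ovaries were collected 11 h after the second injection. One PR knockout and one wild-type RNA sample were each hybridised to 1 Affymetrix Mouse Genome array, so each value is a single measurement, no difference could be tested against the spread between animals, and no p-value is given. The sources used here give neither the number of mice per sample nor the disrupted part of Pgr.

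Collagens are the main structural proteins of the extracellular matrix, built from alpha chains that wind around each other in a helix. Fibrillar collagens form the load-bearing fibres of the follicle wall and stroma, type IV forms the sheet of basement membranes, and type VI forms beaded filaments that link cells to fibres. New chains are hydroxylated and glycosylated in the endoplasmic reticulum, folded with the help of a dedicated chaperone, trimmed outside the cell and cross-linked by lysyl oxidases. At ovulation the collagen-rich wall over the follicle gives way, and it is then rebuilt as the corpus luteum forms.

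Signals are MAS5 values in arbitrary units, and the level of one probe set cannot be set against that of another. The floor for a measurable signal was each array's median over probe sets other than controls, 37.95 on the PR knockout and 36.2 on the wild-type array. Probe sets for Pgr itself gave at most 42.8 in the PR knockout and 36.5 in the wild-type ovary, near the floors, so they give no check of the genotype labels. As a check of the tissue label, all 7 oocyte markers were measured on both arrays, and the 4 oviduct markers were under the floor on both. The only error the arrays give is the spread between probe sets of 1 gene, a within-gene SD of 0.25 on the log2 scale over 4771 genes with at least 2 probe sets measured on both arrays. Over the 20 collagen genes among them it was 0.16. This spread leaves out the variation between animals.

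Most collagen genes differed little between the genotypes, and the few larger differences were all towards higher signal in the PR knockout ovary. Of the 57 genes, 38 were measured on both arrays, that is 66.7% against 58.4% of all genes. The galactosyltransferase gene Colgalt2, the type VI chain gene Col6a4 and the type IV chain genes Col4a4 and Col4a5 were at least 1.5-fold higher in the PR knockout, 4 genes of 38, and 0 were at least 1.5-fold lower. Over all 10633 genes measured on both arrays, 6.1% were at least 1.5-fold higher and 4.56% at least 1.5-fold lower. Nothing particular to collagen genes is read from a count as small as 4 of 38. At 2-fold, Colgalt2 and Col6a4 were higher and 0 members lower, against 0.978% of all genes higher and 1.57% lower. Rescaling shifted both the background and these members. With median centring, quantile normalisation or removal of the loess trend, 4.19% to 4.67% of all genes were at least 1.5-fold higher. The share at least 1.5-fold lower was then 5.15% to 5.71%. The same 4 members stayed past 1.5-fold, the lowest being Col4a5 with a log2 difference of 0.60 (median centring) in place of 0.67.

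The median log2 difference, PR knockout minus wild type, was 0.19 over the 26 chains and 0.07 over the 12 modifying genes measured on both arrays, against 0.05 over all genes measured on both arrays. With median centring these medians were 0.12 for the chains, 0.01 for the modifying genes and -0.02 for all genes, and with no floor they were 0.04, 0.03 and 0.03. By sign alone, 25 of the 38 members (65.8%) were higher in the PR knockout, against 57.5% of all genes, and with median centring 22 of the 38 (57.9%), against 47.7% of all genes. In absolute size the median difference was 0.21 for the 38 members and 0.20 for all genes. Of the 38, 22 lay within 1.2-fold of equality, which is 57.9% against 60.7% of all genes. Differences depended on brightness over the whole array. For a mean signal of 1000 or more the median was 0.07 over 14 collagen genes and -0.05 over 1228 genes in all, and between 100 and 1000 it was 0.21 over 15 and 0.06 over 7269. Under 100 it was 0.23 over 9 collagen genes and 0.13 over 2136 genes.

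**Figure D1:**
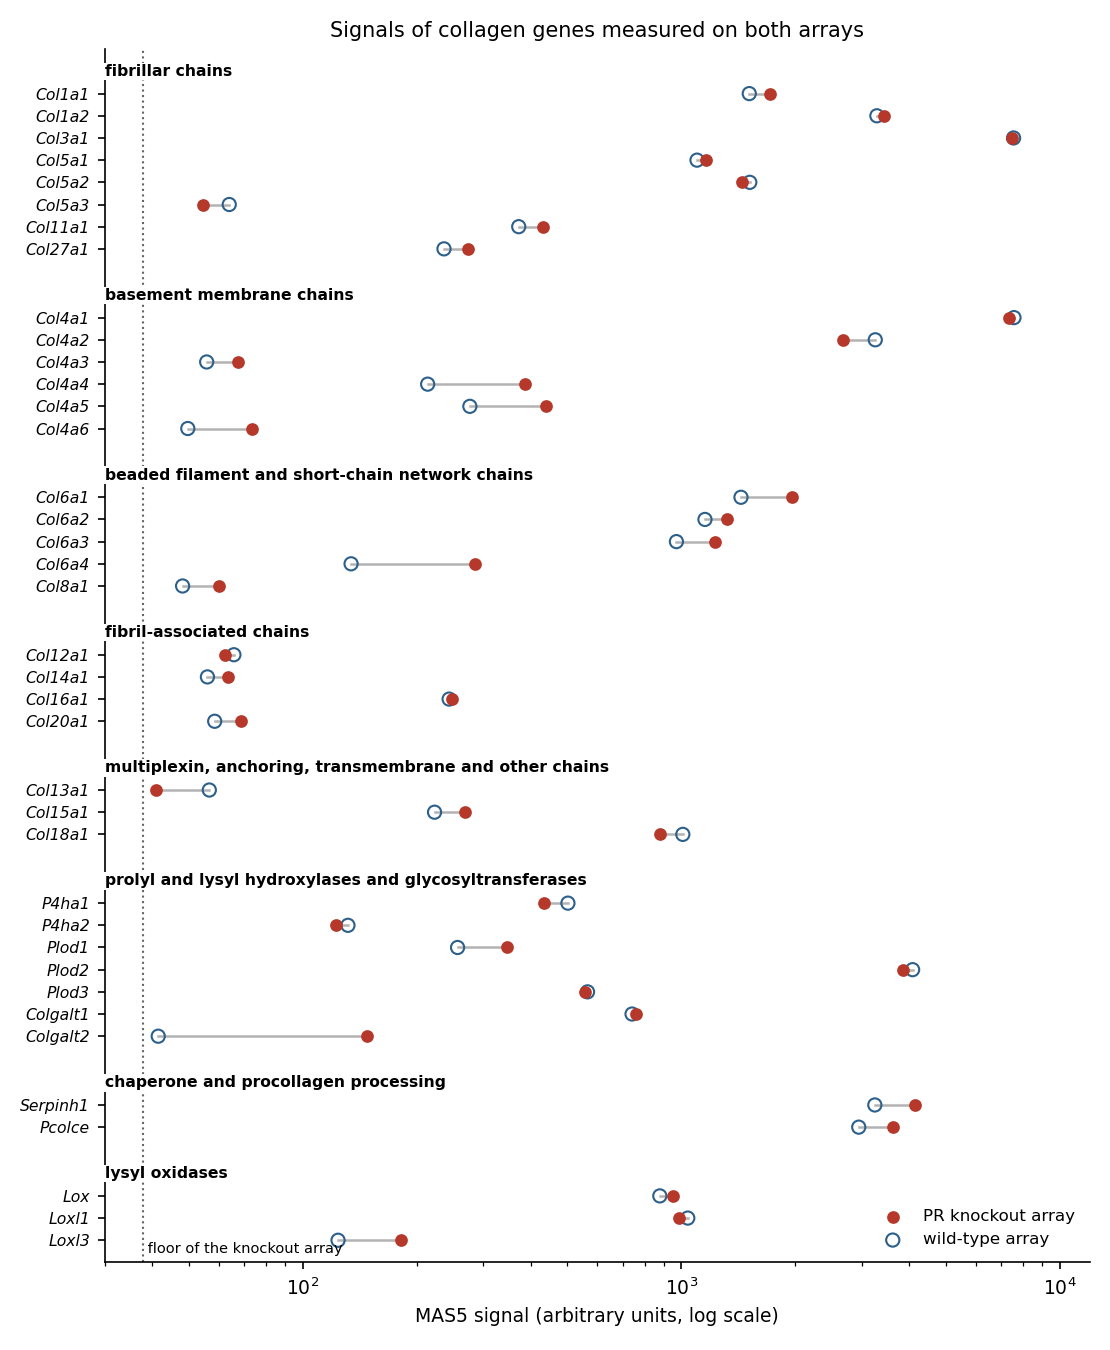
MAS5 signal (log scale) of the 38 collagen genes measured on both arrays, grouped by role, with the PR knockout array as filled red points and the wild-type array as open blue circles; each point is 1 array. Most pairs of points nearly overlap, and Colgalt2, Col6a4, Col4a4 and Col4a5 are the pairs farthest apart, each with the higher signal in the PR knockout.

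The fibrillar chains, which make up the collagen fibres of stroma and theca, were among the most even. Col1a1, a chain of type I collagen, gave 1718 in the PR knockout and 1513 in the wild-type ovary, a log2 difference of 0.18. Its partner chain Col1a2 gave 3435 in the PR knockout and 3287 in the wild type, a log2 difference of 0.06. Both type I chains were thus close to equal, and the sign of the Col1a2 value turned with median centring (-0.01). Col3a1, the type III chain that is abundant in soft tissue, gave 7498 in the PR knockout and 7549.9 in the wild type. This log2 difference of -0.01 turned to 0.14 with quantile normalisation and to 0.11 without the loess trend. Its second probe set gave -0.07.

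Type V collagen sits inside type I fibrils and limits their width. Col5a1 gave 1165 in the PR knockout and 1101 in the wild type, a log2 difference of 0.08, and its other probe sets gave -0.03 and 0.26, so their signs differed. Col5a2 gave 1447 in the PR knockout and 1517 in the wild type by its brightest probe set, a log2 difference of -0.07. The probe sets of Col5a2 disagreed, since the other gave 0.52. Col5a3 was dim, at 54.4 in the PR knockout and 64.0 in the wild type. The minor fibrillar chain Col11a1 gave 433 in the PR knockout and 372 in the wild type, with log2 differences of 0.22 and 0.33 in its probe sets. Col27a1 gave 273 in the PR knockout and 236 in the wild type, with 0.21 and 0.30. Of the 8 fibrillar chains measured on both arrays 5 were higher and 3 lower, 0 of them by 1.5-fold, with a median log2 difference of 0.07, and 5 of 8 is near the 57.5% of all genes that were higher.

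The 6 basement membrane chains ran from -0.28 to 0.86 on the log2 scale by their brightest probe sets, 4 of them higher and 2 lower in the PR knockout. Col4a1 and Col4a2 assemble into the type IV network found in basement membranes of most tissues. Col4a1 gave 7361 in the PR knockout and 7569 in the wild type, a log2 difference of -0.04 (0.02 in its other probe set) that turned to 0.10 with quantile normalisation and to 0.08 without the loess trend. Col4a2 gave 2675 in the PR knockout and 3255 in the wild type, 1.22-fold lower (log2 difference -0.28), and stayed lower under all 3 rescalings. The other 4 chains, Col4a3 to Col4a6, occur in a narrower set of basement membranes, such as that of the kidney glomerulus. All 4 were higher in the PR knockout by their brightest probe sets, also under the 3 rescalings. Of all genes, 57.5% were higher as deposited, near the 4 of 6 chains here, and 47.7% to 54.7% under the rescalings. Nothing particular to type IV collagen is read from these counts.

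The 3 probe sets of Col4a4 gave close values. The brightest gave 387 in the PR knockout and 214 in the wild type, 1.81-fold higher. The second gave 380.3 in the PR knockout and 197 in the wild type, and the third 153 in the PR knockout and 83.8 in the wild type. On the log2 scale the 3 probe sets thus ran from 0.86 to 0.95, within the spread usual between probe sets of 1 gene.

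Col4a5 gave 439 in the PR knockout and 276 in the wild type, 1.59-fold higher by its brightest probe set. Its other probe set gave 175 in the PR knockout and 166 in the wild type, a log2 difference of 0.08, so that the mean over probe sets was 0.37 and under 1.5-fold. Col4a3 was dim, at 67.3 in the PR knockout and 55.8 in the wild type, a log2 difference of 0.27. Col4a6 was dim as well, at 73.4 in the PR knockout and 49.7 in the wild type, a log2 difference of 0.56. A second Col4a6 probe set ran the other way, with 27.2 in the PR knockout, under the floor, and 62.9 in the wild type, so the direction of Col4a6 is not settled by these arrays.

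Type VI collagen was higher in the PR knockout in all 4 chains measured on both arrays, and this held under the 3 rescalings. Over all genes 57.5% were higher as deposited, and 47.7% to 54.7% under the rescalings. Nothing particular to type VI collagen is read from 4 chains. Col6a1, Col6a2 and Col6a3 are the chains of the common type VI molecule. Col6a1 gave 1958 in the PR knockout and 1438 in the wild type, 1.36-fold higher. Col6a2 gave 1319 in the PR knockout and 1155 in the wild type, 1.14-fold higher, and its other probe set had a log2 difference of 0.30. Col6a3 gave 1225 in the PR knockout and 971 in the wild type, 1.26-fold higher. These are modest differences, of 0.19 to 0.44 on the log2 scale, at bright signals.

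Col6a4, an additional type VI chain that can take the place of Col6a3 in the trimer, differed most among all collagen chains. It gave 286 in the PR knockout and 134 in the wild type, 2.13-fold higher (log2 difference 1.09). The value rests on a single probe set, since its other one was under the floor on both arrays, at 13.2 in the PR knockout and 16.1 in the wild type. Col6a5, a further alternative chain, was under the floor on both arrays, and no probe set carried the symbol Col6a6. The short-chain network collagen Col8a1, a component of vessel walls, was dim at 60.2 in the PR knockout and 48.2 in the wild type. Another probe set of Col8a1 ran the other way, at 33.95 in the PR knockout, under the floor, and 46.8 in the wild type.

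**Figure D2:**
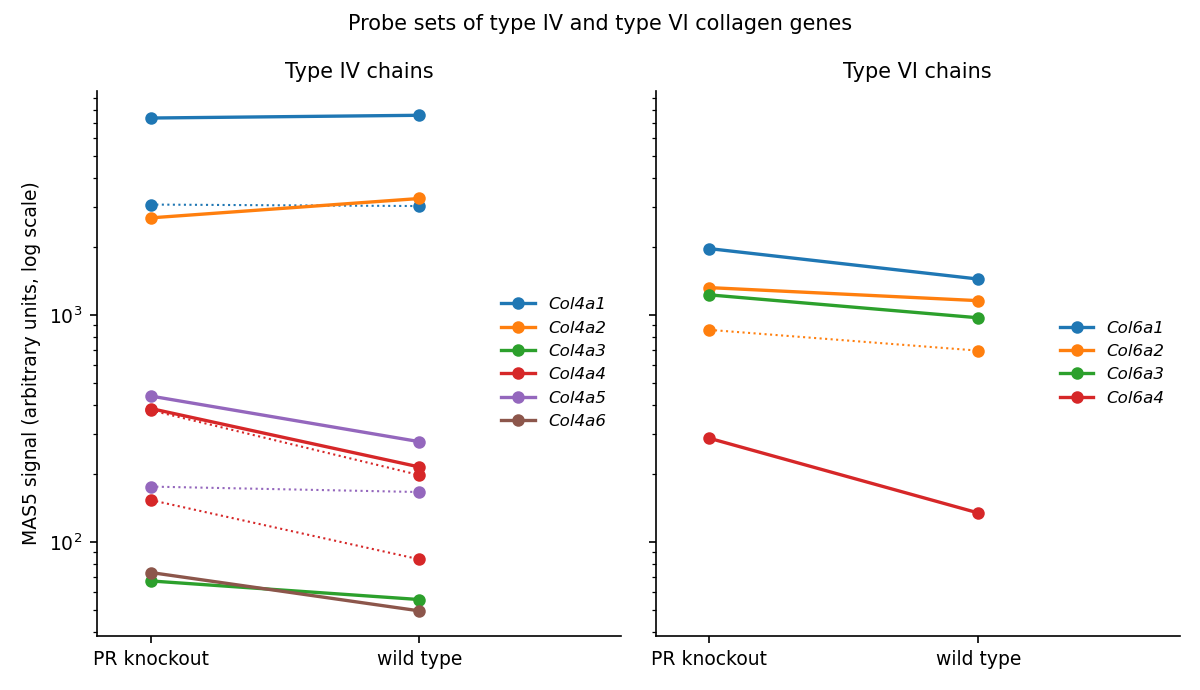
MAS5 signal (log scale) of each probe set measured on both arrays for the type IV (left) and type VI (right) collagen genes, with the PR knockout array on the left of each panel and the wild-type array on the right. Solid lines join the brightest probe set of a gene and dotted lines its others; lines for Col4a4 (0.86 to 0.95 on the log2 scale) and Col6a4 (1.09) drop towards the wild type, while those for Col4a1 are nearly level.

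The promoters of the chains at least 1.5-fold higher in the PR knockout are shown to place these genes in the genome, as far as the RefSeq table (GRCm38.p6) held an entry. Each is the 250 bases before the annotated transcript start, given 5′ to 3′ on the strand of the gene, with capitals marking a CCAAT box (CCAAT) or a GC box (GGGCGG) on either strand. The Col4a4 window, which overlaps the annotated span of Col4a4 itself and the start of its neighbour Col4a3, is chr1:82586850-82587099 (minus strand), the Col4a5 window chrX:141475169-141475418 (plus strand) and the Col6a4 window chr9:106096692-106096941 (minus strand).
Col4a4: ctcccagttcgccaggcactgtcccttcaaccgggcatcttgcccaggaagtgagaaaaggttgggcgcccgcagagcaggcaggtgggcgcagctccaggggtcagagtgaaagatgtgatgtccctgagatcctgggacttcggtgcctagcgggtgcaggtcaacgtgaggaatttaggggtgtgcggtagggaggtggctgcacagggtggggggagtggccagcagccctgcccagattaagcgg
Col4a5: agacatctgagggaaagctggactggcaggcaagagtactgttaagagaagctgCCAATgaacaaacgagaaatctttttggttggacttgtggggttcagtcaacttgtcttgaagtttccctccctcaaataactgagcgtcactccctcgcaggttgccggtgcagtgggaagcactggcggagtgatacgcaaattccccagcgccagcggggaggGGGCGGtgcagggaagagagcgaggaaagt
Col6a4: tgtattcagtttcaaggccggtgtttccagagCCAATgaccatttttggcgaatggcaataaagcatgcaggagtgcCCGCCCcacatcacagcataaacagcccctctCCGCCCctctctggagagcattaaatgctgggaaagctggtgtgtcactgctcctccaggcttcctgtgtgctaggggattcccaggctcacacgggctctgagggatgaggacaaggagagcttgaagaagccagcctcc
The Col4a4 window held 0 matches to either motif, the Col4a5 window 1 CCAAT box and 1 GC box, and the Col6a4 window 1 CCAAT box and 2 GC boxes. In base composition they ran from 54.0% G and C for Col4a5 and 55.2% for Col6a4 to 62.8% for Col4a4, beside a median of 52.4% over all promoters.

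Of the 57 collagen genes, 43 had an entry in the promoter table, with 47 windows in all. A GC box lay in 31 of the 47 windows (66.0%), against 32.7% of all 32851 windows of the same length, and a CCAAT box in 14 (29.8%), against 33.8%. A TATA box (TATAAA) lay in 6 of 47 (12.8%), against 12.4%. The core hexamer recognised by progesterone, glucocorticoid and androgen receptors (TGTTCT) lay in 4 of 47 (8.51%), against 16.1%. None of the 3 printed windows held a TATA box or this hexamer, and none of these motifs contains another. Both strands were searched, and a match is a description of the letters and not of binding. Most of the 47 windows were richer in G and C than the median of 52.4% over all promoters. They ran from 35.2% for Col3a1 to 76.4% for Col5a1. The windows compared were not matched for base composition, and its part in the motif shares was not tested. Nor was the comparison set limited to protein-coding genes or to genes on the array.

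Fibril-associated collagens sit on the surface of fibres and connect them to other matrix. Col16a1 gave 248 in the PR knockout and 244 in the wild type, a log2 difference of 0.03 whose sign turned under all 3 rescalings. Col12a1 gave 62.4 in the PR knockout and 65.8 in the wild type, with log2 differences of -0.08 and -0.33 in its probe sets, and Col14a1 gave 63.4 in the PR knockout and 56.0 in the wild type. Col20a1 gave 68.7 in the PR knockout and 58.5 in the wild type, with log2 differences of 0.23 and 0.16 in its probe sets.

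The multiplexins Col15a1 and Col18a1 are basement membrane collagens that also carry sugar chains. Col15a1 gave 268 in the PR knockout and 223 in the wild type, a log2 difference of 0.27. Col18a1, whose end fragment is endostatin, gave 879 in the PR knockout and 1009.6 in the wild type, a log2 difference of -0.20. The probe sets of Col18a1 disagreed in sign, as the other gave 0.15. The transmembrane collagen Col13a1 had the largest difference towards lower signal among the measured members, with 41.0 in the PR knockout and 56.7 in the wild type, 1.38-fold lower at signals close to the floor.

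Among the hydroxylases and glycosyltransferases that act on new chains, Colgalt2 stood apart in size. Colgalt1 and Colgalt2 add galactose to hydroxylysine. Colgalt2 gave 148 in the PR knockout and 41.5 in the wild type, 3.55-fold higher. The value rests on a single probe set, and the wild-type signal was 1.15 times the floor of that array. With a floor at the 70th percentile of each array (121 on the wild-type array) it was at least 1.22-fold higher in the PR knockout. Colgalt1 gave 759.5 in the PR knockout and 741 in the wild type, and its 2 probe sets gave 0.03 and 0.02 on the log2 scale, a sign that turned for the brighter one with median centring (-0.03).

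The lysyl hydroxylases prepare the lysines that carry sugars and cross-links. Plod1 gave 347 in the PR knockout and 257 in the wild type, 1.35-fold higher. Plod2, which acts on the chain ends that form cross-links, gave 3852 in the PR knockout and 4085 in the wild type, with log2 differences of -0.08 and -0.11 in its probe sets, and the first turned to 0.00 with quantile normalisation and without the loess trend. Plod3 gave 558 in the PR knockout and 566 in the wild type. The prolyl hydroxylase subunit genes P4ha1 and P4ha2, needed for a helix that is stable at body temperature, had log2 differences of -0.21 and -0.10. P4ha1 gave 434 in the PR knockout and 502 in the wild type, and P4ha2 gave 123 in the PR knockout and 132 in the wild type. Of the 7 genes of this group that were measured, all but Colgalt2 and Plod1 lay within 1.2-fold of equality.

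Serpinh1, the collagen-specific chaperone of the endoplasmic reticulum, gave 4135 in the PR knockout and 3247 in the wild type, 1.27-fold higher. Its other probe set gave 3771 in the PR knockout and 3099.6 in the wild type, a log2 difference of 0.28. Pcolce, which speeds removal of the procollagen end by its protease, gave 3616 in the PR knockout and 2944 in the wild type, 1.23-fold higher, and its other probe set had a log2 difference of 0.14. Both were bright, higher in the PR knockout in each probe set, and stayed higher under the 3 rescalings.

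The lysyl oxidases start the cross-links between chains. Lox gave 950.3 in the PR knockout and 878 in the wild type, with log2 differences of 0.11 and 0.18 in its probe sets. Loxl1, best known for its role in elastic fibres, gave 985 in the PR knockout and 1041 in the wild type, a log2 difference of -0.08. Loxl3 gave 182 in the PR knockout and 124 in the wild type, 1.46-fold higher by its only probe set.

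**Figure D3:**
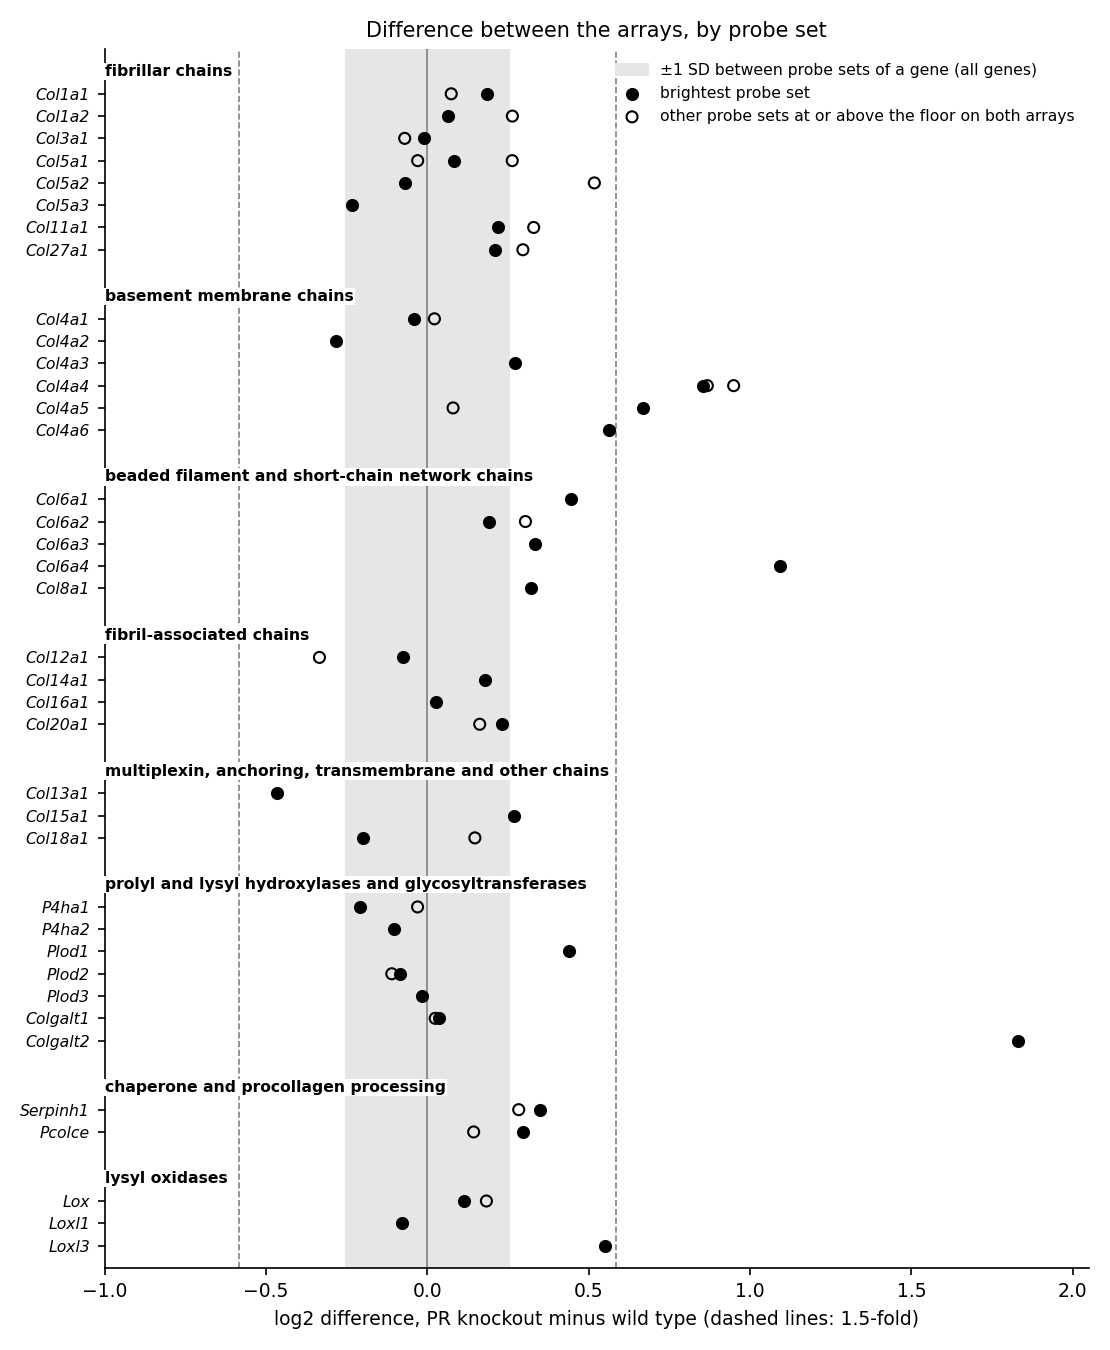
Log2 difference, PR knockout minus wild type, for each collagen gene measured on both arrays, with the brightest probe set as a filled point and its other measured probe sets as open circles. The grey band is 1 SD (0.25) either side of 0 for probe sets of the same gene, and the dashed lines mark 1.5-fold; the brightest probe sets of Colgalt2, Col6a4, Col4a4 and Col4a5 lie beyond the right dashed line and none beyond the left.

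The other 19 genes could not be compared in this way. Col7a1, the anchoring fibril collagen of skin, was measured on 1 array only, at 26.4 in the PR knockout, under the floor, and 46.5 in the wild type, at least 1.22-fold lower. The remaining 18 were under the floor on both arrays, with signals of at most 34.4 in the PR knockout and 36.2 in the wild type, so no difference was detectable. They were the cartilage-type chains Col2a1, Col9a1, Col9a2, Col9a3, Col10a1 and Col11a2, the chains Col6a5, Col8a2, Col17a1, Col19a1, Col22a1, Col23a1, Col24a1, Col25a1 and Col26a1, and the modifying genes P4ha3, Loxl4 and Pcolce2.

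Other genes of the collagen pathway, listed by role, were compared in the same way. Each count past 1.5-fold in these small lists stands against 6.1% of all genes higher and 4.56% lower. Of 17 further folding and export genes measured on both arrays, 1 was at least 1.5-fold higher in the PR knockout and 0 lower, and the median log2 difference was -0.01. The higher gene was Fkbp7, a prolyl isomerase of the endoplasmic reticulum, at 375 in the PR knockout and 231 in the wild type. The vesicle coat gene Sec24d and the ion channel gene Tmem38b had log2 differences of -0.42 and -0.41. The procollagen proteinase genes Bmp1 and Adamts3, which cut the ends off procollagen, had log2 differences of -0.27 and -0.58. Adamts3 was dim, at 87.1 in the PR knockout and 130 in the wild type. Only these 2 of 6 proteinase genes were measured, and the other 4 were under the floor on both arrays.

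Fibril assembly partners went both ways, with 2 of 18 at least 1.5-fold higher in the PR knockout and 1 lower, and a median log2 difference of -0.05. Tnxb, a tenascin that binds collagen fibrils, gave 301 in the PR knockout and 114 in the wild type, 2.64-fold higher. Lum, a small proteoglycan that spaces fibrils, was 1.79-fold higher in the PR knockout, while Fbln2, a fibulin of elastic fibres and basement membranes, was 1.71-fold lower.

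Collagen receptors had 0 of 7 past 1.5-fold in either direction and a median log2 difference of 0.02, with Adgrg1, a receptor for type III collagen, the highest at 0.48. The discoidin domain receptor genes Ddr2 and Ddr1, both tyrosine kinases that bind collagen, had log2 differences of -0.33 and 0.26, and the probe sets of Ddr1 differed in sign. Among collagen-degrading proteases 3 of 9 were measured on both arrays. Mmp2, a gelatinase, gave 869 in the PR knockout and 436 in the wild type, 1.99-fold higher, and its other probe set had a log2 difference of 0.95. Its membrane-bound activator gene Mmp14 had a log2 difference of -0.24, with probe sets of both signs, and the cysteine protease gene Ctsk one of -0.09. Of the other 6, 5 were under the floor on both arrays and 1 was measured on 1 array only.

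Genes of TGF-beta signalling, a main inducer of collagen synthesis, had a median log2 difference of 0.02, with 2 of 12 at least 1.5-fold higher in the PR knockout and 0 lower. The ligand gene Tgfb3 was 1.63-fold and Ltbp1, which stores the latent ligand in matrix, 1.53-fold higher. Tgfb1, the most studied of the ligand genes, was 1.40-fold lower.

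Markers of the cells that make collagen, or that a whole ovary also holds, were read beside these values, and each count of higher markers stands against the 57.5% of all genes that were higher (47.7% with median centring). In bulk RNA, fewer cells of a type and less RNA per cell cannot be told apart. A summed signal adds probe sets whose levels cannot be compared, so it mostly follows the brightest gene of a list. For theca, Hsd3b1 alone gave 12099.5 of the sum of 14765 in the PR knockout. Of the stroma and fibroblast markers 10 of 12 were measured on both arrays, 7 of them higher in the PR knockout, with a median log2 difference of 0.27 and a summed signal of 9455 in the PR knockout and 7589 in the wild type. Within this list, which shares Lum, Dcn, Dpt and Fbln1 with the fibril partners, the transcription factor gene Tcf21 was 2.76-fold higher and the surface protein gene Thy1 1.82-fold lower, and Pi16 was under the floor on both arrays. Smooth muscle and pericyte markers were level, with 10 of 10 measured, 6 higher and 4 lower, a median of 0.03 and a summed signal of 11627 in the PR knockout and 12203 in the wild type. Endothelial markers had 7 of 9 higher, a median of 0.31 and a summed signal of 2106 in the PR knockout and 1741 in the wild type.

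Granulosa markers of growing follicles had 9 of 10 higher by the brightest probe sets, a median log2 difference of 0.62 and a summed signal of 18379 in the PR knockout and 15821 in the wild type. Among the 9, Nr5a2 (0.09) had other probe sets at -0.47 and -0.38. The other probe sets of Inhbb (0.58) and Foxl2 (0.49) were higher too. Theca markers were read by 3 genes on both arrays, 2 higher and 1 lower, with a median of 0.11 and a summed signal of 14765 in the PR knockout and 13870.1 in the wild type. The hedgehog receptor gene Ptch1 had a log2 difference of 0.97, Hsd3b1 one of 0.11 and the androgen synthesis gene Cyp17a1 one of -0.47. Luteinizing cell markers had 2 of 5 higher, a median of -0.12 and a summed signal of 23615 in the PR knockout and 29656 in the wild type, with log2 differences of -2.81 for Akr1c18, which inactivates progesterone, -0.55 for Star, which carries cholesterol into mitochondria, and 0.21 for the prostaglandin receptor gene Ptgfr.

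Surface epithelium markers were lower in the PR knockout, with 7 of 8 lower and a median log2 difference of -0.59. Their summed signal was 842 in the PR knockout and 1391 in the wild type. The keratin genes Krt7 (3.15-fold), Krt8 (2.26-fold) and Krt18 (2.06-fold) were the lowest. Measured markers other than keratins ran from -0.56 (Msln) to 0.16 (Upk1b) on the log2 scale. The other probe set of Upk1b gave -0.58. Leukocyte markers had 2 of 6 higher, a median of -0.11 and a summed signal of 934 in the PR knockout and 862 in the wild type, and Itgam, Cd3e and S100a8 were under the floor on both arrays. Of the fat markers, Fabp4, also a gene of endothelium, was 4.72-fold lower in the PR knockout while Adipoq and Lep were under the floor on both arrays. The part of these cell types in the values of Col4a4, Col4a5, Col6a4 and Colgalt2 was not tested.

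**Figure D4:**
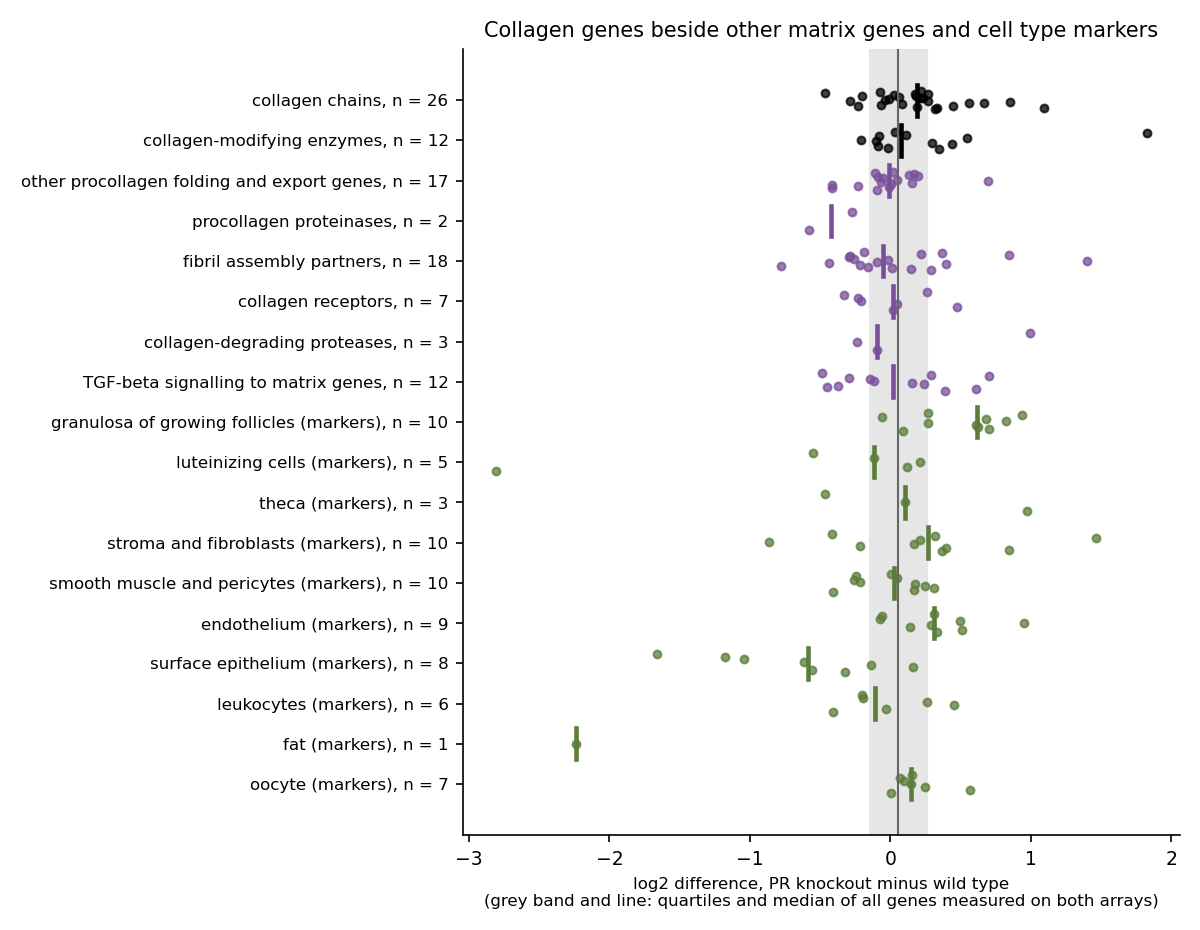
Log2 difference, PR knockout minus wild type, of each gene measured on both arrays, for collagen chains and modifying enzymes (black), other genes of the collagen pathway (purple) and cell type markers (green); each point is 1 gene and each vertical bar the median of its list. The grey band spans the quartiles of all genes (-0.14 to 0.26) around their median of 0.05; the medians of both collagen groups lie inside the band, while the medians of granulosa (0.62) and surface epithelium markers (-0.59) are among those outside it.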

How the data were processed

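Total RNA of ovaries was measured on Affymetrix whole-genome mouse arrays, 1 for each genotype. Trizol extraction and a 3′ labelling kit for biotin were used, per the labels. The authors deposited a linear intensity for every probe set, made with MAS5 and Affymetrix Expression Console version 1 according to the submitters' processing notes. The mean after trimming 2% at each end was 150.001 on both arrays, so each was scaled to 1 target. MAS5 subtracts mismatch probes, which makes low signals noisy. Detection calls and scanner files were not used here.

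After 64 control probe sets of 45101 were set aside, 34945 carried 1 gene symbol in the platform annotation. A gene counted as measured where its brightest probe set reached the floor, each array's median. Signals under it were set to it where "at least" is written. Differences are log2 of PR knockout over wild type, computed with pandas 2.3.3 and checked on simulated data. The simulation had the same noise at every brightness, so it checked the calculation and not the error of these arrays. Alternatives changed the scaling (median, quantile, loess with a span of 0.4 in statsmodels 0.14.6), the floor, an offset of 50 and the choice of probe sets. The number of arrays limits precision. RefSeq tables (GRCm38.p6) served for names (57 of 57 members found), neighbours and promoters. Members and lists were chosen with earlier results of these data known. Named genes were all members, and from each other list at most the 3 largest differences among genes measured on both arrays, plus genes that a limit turns on.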

Additional observations from a re-analysis of the deposited data

How the results depend on the processing

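Over 10 alternatives, 0 of the genes at least 1.5-fold apart turned to the other direction. The sign of 6 genes close to equality (Col1a2, Col3a1, Col4a1, Col16a1, Colgalt1 and Plod2) turned under at least 1 rescaling. Of the single-gene values, 352 of 356 moved by less than the probe-set SD of 0.25. The exceptions were Col4a5 (0.37) and Col5a2 (0.22, in place of -0.07) with the mean over probe sets, and Col4a6 (0.31) and Colgalt2 (1.11) with an offset of 50. Part of this count was fixed in advance. Another floor, no floor, a limit on mean signal or adding members measured on 1 array only selects genes. These alternatives left each single-gene value they kept as it was, and median centring moved all values by the same amount. Leaving out probe sets that can match several transcripts moved only Col1a2 and Col3a1 among the values it kept. The mean over probe sets could not move a gene with only 1 probe set measured on both arrays. The median log2 difference ran from 0.04 to 0.22 for the chains and from 0.01 to 0.11 for the modifying enzymes, while that of the fibrillar chains ran from -0.01 to 0.15. The members' median stood 0.13 above that of all genes as deposited and 0.0048 above it with no floor. The count at least 2-fold higher in the PR knockout dropped to 1 gene with the floor at the 70th percentile, with the offset of 50, and for genes with a mean signal of at least 100 only, the last chosen after seeing the data. That gene was Col6a4 with the higher floor and with the signal limit, and Colgalt2 with the offset. The count at least 1.5-fold higher was 3 under these 3 alternatives and with the mean over probe sets. With no floor, 6 of 57 members were at least 1.5-fold and 2 at least 2-fold higher, against 15.0% and 7.95% of all genes. Then 7 were at least 1.5-fold and 3 at least 2-fold lower, against 16.4% and 10.5%, and each of the 7 was under the floor on at least 1 array. Values under about 100 units are limited by background. No paired analysis was possible because there is 1 array per genotype, and for the same reason no replicate could be left out.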

Other observations

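Many collagen genes lie next to each other in the genome. In the RefSeq gene order 8 pairs of collagen genes are neighbours among protein-coding genes, and in 5 of them both genes were measured on both arrays. The log2 differences of the 5 pairs were 0.86 and 0.27 for Col4a4 and Col4a3 on chromosome 1, 0.56 and 0.67 for Col4a6 and Col4a5 on the X chromosome, and 0.19 and 0.44 for Col6a2 and Col6a1 on chromosome 10. They were -0.04 and -0.28 for Col4a1 and Col4a2 on chromosome 8, and -0.01 and -0.07 for Col3a1 and Col5a2 on chromosome 1. By the brightest probe sets the 5 pairs each had 1 sign as deposited. The share of such pairs among all neighbouring genes was not worked out. Nothing particular to collagen genes is read from 5 pairs. Other probe sets ran the other way for Col4a6 (27.2 in the PR knockout, under the floor, and 62.9 in the wild type), for Col5a2 (0.52) and for Col4a1 (0.02). Col4a1 and Col3a1 also turned positive with quantile normalisation and without the loess trend while Col4a2 and Col5a2 stayed negative. The pairs were noticed in the data and not tested.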
